A study of Mus musculus with 6 samples.

Results

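A set of 8 genes of the red cell and platelet lineages was followed in splenocyte cultures of OT1 mice: Slc4a1, Alas2, Beta-s, Klf1, Gata1 and Epor from the erythroid side, and Pf4 and Itga2b from the megakaryocyte and platelet side. They were picked by symbol from the table of exon read counts, which held all 8 among 23453 gene rows. The mice were WT OT1 animals of the C57BL/6 strain, in which T cells bear an OVA-specific transgenic receptor. Their cultures were given OVA peptide for 48 h and then FCM or TCM for 8 h. The 3 libraries that received FCM are titled Vehicle, the other 3 are titled TCM, and the labels expand neither abbreviation. Both groups thus shared the strain, the receptor and the peptide stimulation. The source is given as splenocytes and the cell type as cytotoxic T lymphocytes. No step that enriched T cells is described. Whether replicates were separate mice or cultures is not labelled, and p-values here reflect the spread among these libraries, which may be technical.

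Red cells form from progenitors in bone marrow and, in mice, also in the spleen. The transcription factors GATA1 and KLF1 drive the programme, erythropoietin keeps its progenitors alive through its receptor, and the maturing cell fills with hemoglobin. Megakaryocytes, the source of platelets, arise from a shared progenitor and also use GATA1. A spleen preparation can therefore carry erythroblasts, reticulocytes, megakaryocytes and platelets beside lymphocytes.

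The deposited normalized table and count table name the groups oppositely. In 6 of 6 cases a normalized column was proportional to the count column titled for the other group, and in 0 of 6 to the one with its own title. All directions below follow the count table, as "count-table TCM" against "count-table Vehicle", and each would be turned around if the normalized table's titles were used. Libraries held 17166687 to 25789381 counts, so a single read was worth 0.0374 to 0.0655 CPM (counts scaled to library size with TMM factors), and this limits the precision for genes with few reads. The replicate 1 libraries of both groups stood apart from replicates 2 and 3, with a chi-square per gene of 58.7 to 104 against 4.87 to 7.12. T cell markers were present in every library, at 1534 to 1726 CPM summed over 14 genes in count-table Vehicle and 2067 to 2354 CPM in count-table TCM. Thy1 carried the difference, and the other 13 genes summed to 1258 to 1358 and 1255 to 1335 CPM.

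By the count table's header, 5 of the 6 erythroid genes fell and 1 of the 2 platelet genes fell, while Epor and Pf4 did not pass the test. Across all 12423 genes tested, 58.8% passed the same threshold, 30.0% downward and 28.8% upward (edgeR's quasi-likelihood test, Benjamini-Hochberg adjusted p under 0.05). For those 6 genes every count-table TCM library was below every count-table Vehicle library, against 64.2% of all tested genes in either direction and 33.6% downward. The median log2 change of the 8 genes was -1.42, beside -0.018 over all tested genes. Slc4a1, Alas2 and Klf1 reached the filter on low counts in all 3 libraries in count-table Vehicle alone, so that a gene of this kind had to differ to be tested. The counts are therefore a description, and a difference in the number of cells of a lineage cannot be told apart from a difference in RNA per cell.

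**Figure D1:**
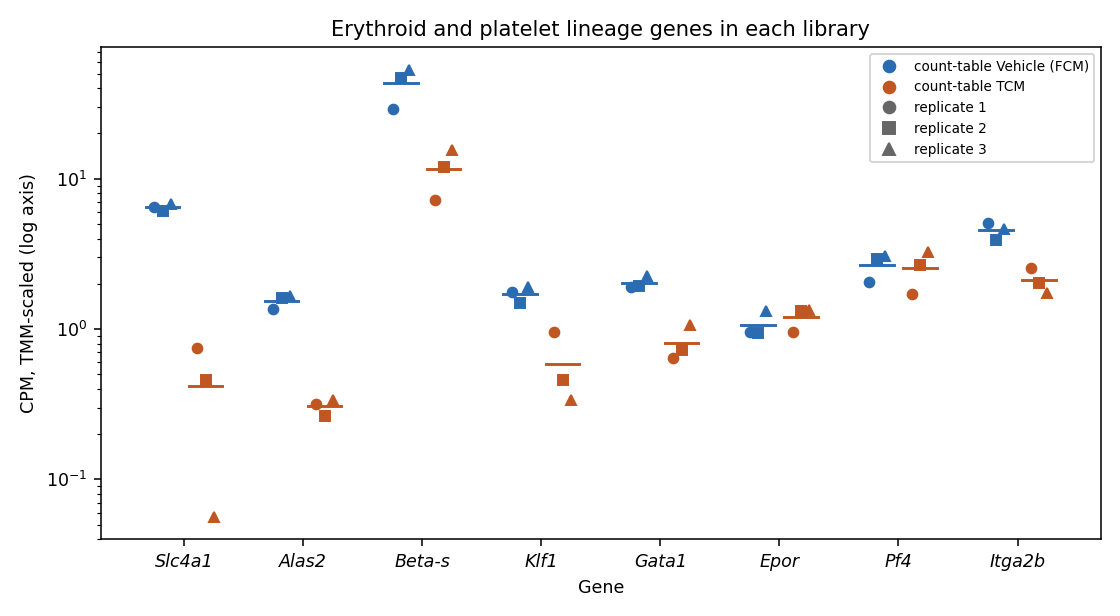
CPM (log axis) of the 8 genes in each library. Blue points are count-table Vehicle and orange points count-table TCM, the marker shape gives the replicate and bars are group means. The groups are apart for 6 genes and overlap for Epor and Pf4, and the lowest point is Slc4a1 in TCM replicate 3 at 0.0562 CPM.

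RefSeq promoter windows (GRCm38.p6, 250 bases before to 50 after the start site) were matched for 7 of the 8 genes and searched for the binding letters of the factors named above. The GATA motif was spelled AGATAA or AGATAG or TGATAA or TGATAG and the CACCC motif of KLF factors CCACACCC, CCACGCCC, CCCCACCC or CCCCGCCC, on both strands. The 5 windows with a GATA match are printed because 3 belong to genes that fell and 2 to genes that did not pass. Capitals mark the GATA and CACCC matches.
Beta-s (chr7:103827879-103828178, - strand): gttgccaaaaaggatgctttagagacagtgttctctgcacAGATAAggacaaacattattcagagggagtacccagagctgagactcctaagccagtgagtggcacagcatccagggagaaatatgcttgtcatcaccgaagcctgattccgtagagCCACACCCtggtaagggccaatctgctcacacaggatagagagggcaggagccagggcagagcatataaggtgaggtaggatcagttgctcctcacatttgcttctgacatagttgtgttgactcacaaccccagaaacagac
Alas2 (chrX:150547167-150547466, + strand): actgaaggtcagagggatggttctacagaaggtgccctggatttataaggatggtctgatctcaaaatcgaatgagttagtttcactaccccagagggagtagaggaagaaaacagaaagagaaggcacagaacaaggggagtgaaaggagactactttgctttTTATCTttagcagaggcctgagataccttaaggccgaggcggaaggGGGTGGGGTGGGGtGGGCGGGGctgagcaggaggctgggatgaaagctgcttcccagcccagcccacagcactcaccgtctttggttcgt
Klf1 (chr8:84901732-84902031, + strand): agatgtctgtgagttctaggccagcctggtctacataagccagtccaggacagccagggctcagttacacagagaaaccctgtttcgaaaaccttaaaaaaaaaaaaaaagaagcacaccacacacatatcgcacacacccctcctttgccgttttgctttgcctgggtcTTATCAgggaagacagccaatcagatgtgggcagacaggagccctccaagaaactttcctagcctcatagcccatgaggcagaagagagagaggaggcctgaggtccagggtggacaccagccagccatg
Epor (chr9:21963527-21963826, - strand): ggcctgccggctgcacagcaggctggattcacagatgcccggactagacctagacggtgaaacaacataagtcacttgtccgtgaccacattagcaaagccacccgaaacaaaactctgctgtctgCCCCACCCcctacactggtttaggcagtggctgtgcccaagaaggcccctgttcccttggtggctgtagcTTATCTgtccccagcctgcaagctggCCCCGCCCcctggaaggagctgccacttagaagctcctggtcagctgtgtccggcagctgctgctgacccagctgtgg
Pf4 (chr5:90772185-90772484, + strand): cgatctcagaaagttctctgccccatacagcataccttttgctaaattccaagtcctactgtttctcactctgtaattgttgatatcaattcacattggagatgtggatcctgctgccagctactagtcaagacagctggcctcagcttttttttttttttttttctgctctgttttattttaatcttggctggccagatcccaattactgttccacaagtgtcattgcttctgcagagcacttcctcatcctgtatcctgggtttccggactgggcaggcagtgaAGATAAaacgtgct

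In the Beta-s window, which RefSeq lists as Hbb-bs, the GATA match lay at -210 to -205 from the start site and a CACCC match at -93 to -86. Alas2 had a GATA match at -86 to -81 and 3 overlapping or neighbouring CACCC matches between -40 and -19, while Klf1 had a GATA match at -80 to -75 and no CACCC match. Epor had a GATA match at -54 to -49 and 2 CACCC matches, at -124 to -117 and -28 to -21. The GATA match of Pf4 lay past the start site, at 37 to 42. Of all 32851 windows of this length, 29.8% held a GATA match and 29.7% a CACCC match. The Gata1 window held a CACCC match but no GATA match, and the Itga2b window held neither. An ETS motif, spelled AGGAAG or CGGAAG, was found in 4 of the 7 windows (Alas2, Gata1, Pf4 and Itga2b) and in 46.5% of all windows. GATA matches were thus present in genes that fell and in genes that did not pass.

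Gata1 and Klf1 encode the lineage factors. Gata1 (chromosome X, 7959260 to 7978071, positions from GENCODE M21, build GRCm38, which is mm10) measured 1.91, 1.95 and 2.25 CPM in count-table Vehicle replicates 1 to 3 and 0.639, 0.72 and 1.07 CPM in count-table TCM. The groups did not overlap, and the log2 change was -1.32 ± 0.25 (SE; adjusted p = 0.00183, edgeR, n = 3 per group). Klf1 (chromosome 8, 84901928 to 84905291) measured 1.77, 1.5 and 1.90 CPM against 0.958, 0.458 and 0.337 CPM. All 3 count-table TCM libraries were lower, with replicate 1 nearest to the other group, and the log2 change was -1.52 ± 0.34 (adjusted p = 0.00459, edgeR). The 2.87-fold fall became 4.31-fold without TCM replicate 1. Counts behind these values were small, with 152 reads of Gata1 and 128 of Klf1 over the count-table Vehicle libraries and 42 and 31 over the count-table TCM libraries.

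Slc4a1 encodes band 3, the anion exchanger that anchors the red cell membrane to its skeleton, and had the largest change of the 8 genes. Its reads numbered 144, 162 and 176 in count-table Vehicle and 14, 7 and 1 in count-table TCM. The Vehicle libraries lay within 6.06 to 6.82 CPM, whereas the TCM libraries spread from 0.0562 to 0.745 CPM. The log2 change of -3.91 ± 0.38 (adjusted p = 4.61e-05, edgeR) was a 15.1-fold fall and the 59th lowest of the 12423 genes tested. Without TCM replicate 1 the fall was 26.0-fold, and without TCM replicate 3, the library with 1 read, it was 10.4-fold. The gene lies on chromosome 11 (102348824 to 102366203).

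Alas2 encodes the erythroid form of the first enzyme of heme synthesis. It had 30, 43 and 43 reads in count-table Vehicle and 6, 4 and 6 in count-table TCM, or 1.55 ± 0.162 and 0.306 ± 0.0393 CPM (SD, n = 3). Both groups were tight, and the log2 change was -2.31 ± 0.28 (adjusted p = 0.000158, edgeR), a 4.96-fold fall. Its exons (chromosome X, 150547375 to 150570638) overlap those of Apex2 on the other strand, and since the strand setting of the counting is not given, reads there cannot be assigned. Apex2 itself had a log2 change of -0.31 ± 0.13 and did not pass (adjusted p = 0.0637, edgeR). Alas1, the form of the enzyme used by other cells, measured 48.6 ± 6.15 CPM in count-table Vehicle and 33.7 ± 1.76 CPM in count-table TCM and fell by 0.53 on the log2 scale.

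Beta-s, an adult beta-globin gene listed as Hbb-bs in GENCODE (chromosome 7, 103826534 to 103828096), was the most abundant of the 8. It measured 29.3, 46.7 and 53.1 CPM in count-table Vehicle and 7.24, 11.9 and 15.6 CPM in count-table TCM. Replicate 1 was the lowest library of both groups, yet the groups did not overlap, and the log2 change was -1.90 ± 0.29 (adjusted p = 0.000625, edgeR). Other globin rows were almost empty. The alpha-globin gene Hba-a1 had 1 read in all and Hba-a2 had 0, beside 3860 reads of Beta-s, and Hbb-b1, Hbb-b2, Hbb-y and Hbb-bh1 had 5, 22, 3 and 1. Of the windows of 50 bases in the longest Hba-a2 transcript of GENCODE, 86.9% also occurred in Hba-a1, and 67.5% of those of Hba-a1 occurred in Hba-a2. For Hbb-bs, 65.8% of such windows occurred in Hbb-bt, a neighbouring adult gene for which no row was found in the count table. How reads that map to more than 1 copy were counted is not given in the sources used here, so the level of Beta-s against other globins is uncertain.

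Epor encodes the erythropoietin receptor. It measured 0.953, 0.935 and 1.32 CPM in count-table Vehicle and 0.958, 1.31 and 1.35 CPM in count-table TCM, so the groups overlapped. The log2 change was 0.16 ± 0.26 (adjusted p = 0.611, edgeR), with a 95% interval of -0.43 to 0.75. A 2-fold change in either direction lay outside this interval, and the intervals of the other 5 erythroid genes lay wholly below it. The sign of this small value turned to -0.057 when libraries were scaled by their totals alone. Epor lies on chromosome 9 (21958897 to 21963506).

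Itga2b and Pf4 represent the platelet lineage. Itga2b (chromosome 11, 102453297 to 102470122), the alpha chain of the fibrinogen receptor of platelets, measured 5.08, 3.93 and 4.65 CPM in count-table Vehicle and 2.55, 2.03 and 1.74 CPM in count-table TCM. The groups did not overlap, and the log2 change was -1.10 ± 0.20 (adjusted p = 0.00135, edgeR). Pf4 (chromosome 5, 90772435 to 90773383), a chemokine stored in platelet granules, measured 2.04, 2.92 and 3.06 CPM against 1.70, 2.68 and 3.26 CPM. Its groups overlapped throughout, with replicate 1 the lowest in both, and its log2 change was -0.084 ± 0.26 (adjusted p = 0.798, edgeR; 95% interval -0.68 to 0.51). The sign of the Pf4 value was not stable, and it reached 0.15 without TCM replicate 1.

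**Figure D2:**
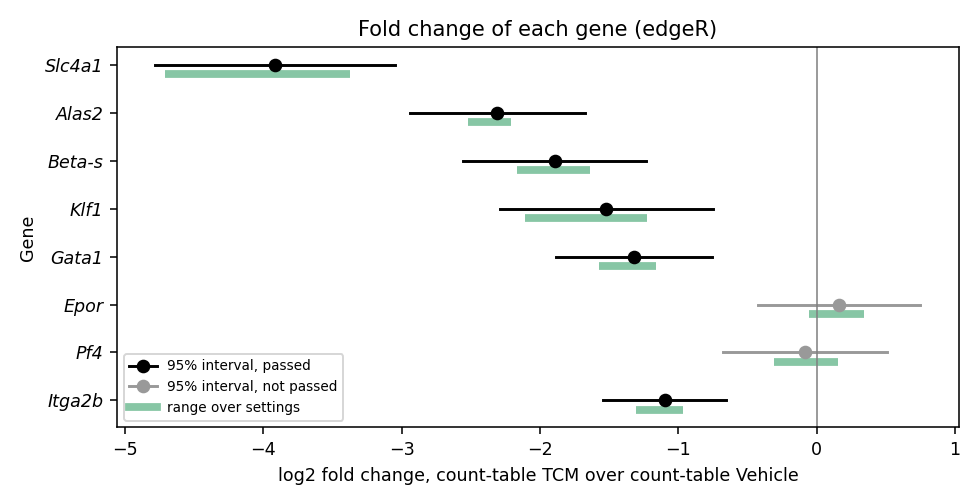
Log2 fold change of each gene, count-table TCM over count-table Vehicle, from edgeR with its 95% interval (black where the adjusted p was under 0.05, grey where it was not). Green bars give the range over 13 other settings that keep the count table's header; they stay below 0 for 6 genes, with Slc4a1 from -4.71 to -3.38, and cross 0 for Epor and Pf4.

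Set side by side per kilobase of exon, the levels in count-table Vehicle ran from Beta-s at 56.0 ± 16 CPM per kilobase (SD, n = 3) over Pf4 at 3.71 ± 0.766 and Slc4a1 at 1.32 ± 0.0787 to Epor, the lowest, at 0.537 ± 0.109. Klf1 followed Slc4a1 at 1.13 ± 0.135 CPM per kilobase, and their ranges touched. Itga2b and Gata1 could not be ordered, at 0.835 ± 0.107 and 0.834 ± 0.077 CPM per kilobase. Alas2 lay between them and Epor at 0.643 ± 0.0676 CPM per kilobase, and its range met that of Epor. In count-table TCM, Beta-s and Pf4 still led, at 15.1 ± 5.47 and 3.54 ± 1.09 CPM per kilobase. Epor followed at 0.606 ± 0.108 CPM per kilobase and its range met that of Klf1, at 0.382 ± 0.215. Itga2b and Gata1 again could not be ordered, at 0.387 ± 0.0755 and 0.332 ± 0.0935 CPM per kilobase. Alas2 stood at 0.127 ± 0.0164 and Slc4a1 was last at 0.0858 ± 0.0707 CPM per kilobase, with overlapping ranges. Exon lengths are from GENCODE M21, which may differ from the annotation used for counting.

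Ratios of read counts within a library do not depend on how libraries are scaled. There were 4.80, 3.77 and 4.09 reads of Slc4a1 per read of Alas2 in count-table Vehicle and 2.33, 1.75 and 0.167 in count-table TCM, with no overlap. Alas2 per Gata1 also separated, at 0.714, 0.827 and 0.741 against 0.5, 0.364 and 0.316. By contrast, Beta-s per Alas2 overlapped, at 21.5, 29.0 and 31.9 against 22.7, 45.5 and 46.3, and so did Klf1 per Gata1, at 0.929, 0.769 and 0.845 against 1.5, 0.636 and 0.316. Epor per Gata1 went from 0.5, 0.481 and 0.586 to 1.5, 1.82 and 1.26. In an exact two-sided permutation test over the 28 pairs of the 8 genes none could reach the threshold, since the smallest p that 3 against 3 allows is 0.1, which became 0.165 after adjustment over the 28 pairs.

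**Figure D3:**
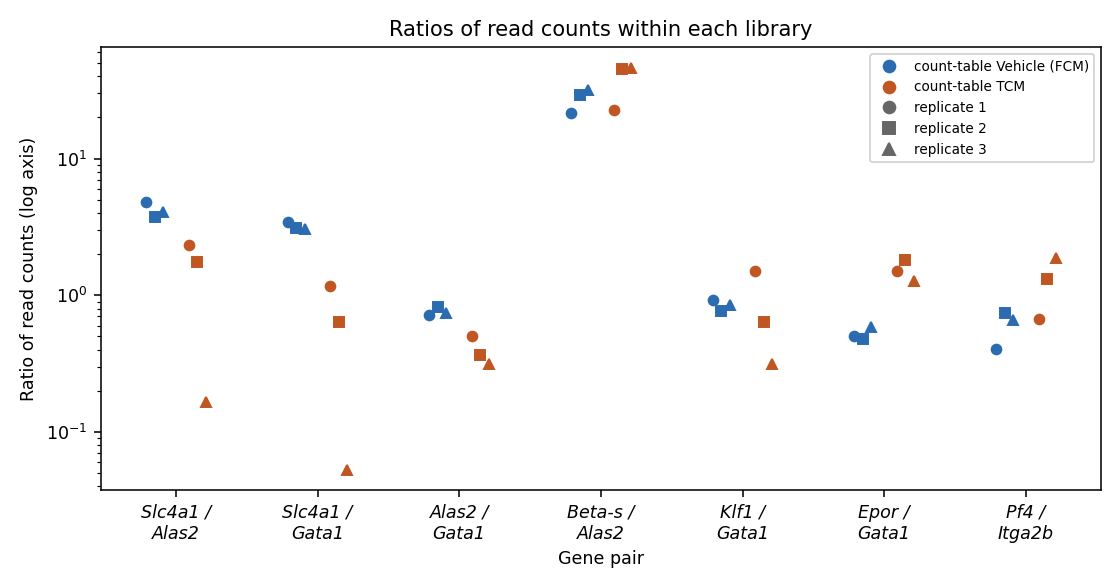
Ratio of the read counts of 2 genes within each library (log axis), for 7 gene pairs. Blue points are count-table Vehicle, orange points count-table TCM, and the marker shape gives the replicate. Slc4a1 per Alas2 lies at 3.77 to 4.80 in blue and at 0.167 to 2.33 in orange, while Beta-s per Alas2 and Klf1 per Gata1 overlap.

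Compared within each replicate number, the 6 genes that passed were lower in count-table TCM in 3 of 3 pairs. Log2 ratios (with 0.5 counts added) of Slc4a1 were -3.09, -3.63 and -6.34, those of Alas2 -2.0, -2.47 and -2.21, and those of Beta-s -2.01, -1.97 and -1.76. Klf1 ranged from -2.39 to -0.86, Gata1 from -1.54 to -1.05 and Itga2b from -1.40 to -0.94. For these 6 genes every count-table TCM library was below every count-table Vehicle library. Any pairing, the replicate 1 pair included, therefore had to give this direction, and only the sizes of the ratios are informative.

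Other components of the red cell membrane and its skeleton were mostly low in count. Of 22 listed genes 15 were tested, and 9 fell, 2 rose and 4 did not pass (median log2 change -1.55 against -0.018 over all genes). Falls were 60% and rises 13.3% of those tested, against 30.0% and 28.8% of all tested genes. Of the 9 that fell, 8 reached the filter through the count-table Vehicle libraries alone. Sptb and Ank1, which encode beta-spectrin and ankyrin of the red cell skeleton, fell 6.33-fold and 12.2-fold, from 1.36 ± 0.289 to 0.21 ± 0.0502 CPM and from 1.01 ± 0.00638 to 0.0729 ± 0.0632 CPM. Ermap, an erythroid membrane protein gene, had 96 reads over count-table Vehicle and 3 over count-table TCM, a ratio of 22.3 (95% exact counting interval 7.39 to 110). The 2 that rose were Slc2a1, the glucose transporter GLUT1 that many cells use, at 2.50-fold, and the glycophorin C gene Gypc, with a log2 change of 0.33. The Gypc call was lost without any 1 of Vehicle replicates 1, 2 or 3 or TCM replicates 2 or 3 (adjusted p = 0.0564 to 0.0732, edgeR). Among 7 genes under the filter, the blood group genes Kel and Rhd had 41 and 30 reads in count-table Vehicle and 1 and 2 in count-table TCM. With no filter, 4 of these 7 passed downward and 0 upward in edgeR, and the list's falls numbered 14. Over all 16864 genes tested with no filter, 3905 passed downward and 3790 upward.

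Heme synthesis and iron uptake genes, which most cells need, were called at shares near those of all tested genes. Among 20 tested, 5 were higher (25% against 28.8% of all), 7 lower (35% against 30.0%) and 8 not past the threshold, around a median log2 change of -0.022. Steap3, a reductase of endosomal iron, rose 2.59-fold, Cpox 2.52-fold and Fech, the last enzyme of heme synthesis, 1.60-fold. Slc25a37, the mitochondrial iron importer mitoferrin, fell 1.42-fold from 92.2 ± 2.84 to 64.9 ± 0.871 CPM. Uros, which encodes another enzyme of heme synthesis, fell 1.76-fold, and Urod and Alad did not pass.

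Transcription factors of the lineages were also called at shares near those of all genes. Of 26 tested genes 8 fell (30.8% against 30.0%), 7 rose (26.9% against 28.8%) and 11 did not pass (median -0.017). Nfe2, a factor of megakaryocytes and red cells that is also found in myeloid cells, fell 8.56-fold from 24.1 ± 3.12 to 2.84 ± 0.606 CPM (SD, n = 3). Cbfa2t3, a corepressor, fell 4.11-fold, Gata2 2.97-fold and Myb 2.11-fold. Tal1 and Gfi1b, partners of GATA1 in the erythroid programme, fell as well, with log2 changes of -1.71 and -1.73 from 2.67 and 1.49 CPM in count-table Vehicle. Fli1 and Lmo2, which are not restricted to these lineages, rose, with log2 changes of 0.80 and 0.71, and Zfpm1 and Runx1 did not pass.

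Genes that act with or downstream of the erythropoietin receptor gave 7 of 22 higher, 7 lower and 8 not passing (median -0.13). The share of 31.8% in each direction was near the 28.8% higher and 30.0% lower over all tested genes. With the replicate number as a block, or without both replicate 1 libraries, 11 fell. Calls over all genes also became more numerous in these fits. The block gave 4594 of 12423 genes lower, against 3726 in the main fit. Without both replicate 1 libraries 9337 genes were called in either direction, against 7310. Lyn and Sh2b3, a kinase and an adaptor of receptor signalling, fell 2.66-fold and 2.40-fold, whereas the mitophagy receptor gene Bnip3l rose 3.13-fold and Gab1 9.41-fold. Gab1 reached the filter through count-table TCM alone. Jak2, the kinase bound to the receptor, fell by 1.06 on the log2 scale and Stat5a rose by 0.84. Epo itself had 0 reads in all libraries. Fam132b, the gene of erythroferrone, an erythroblast hormone that lowers hepcidin, was under the filter with 9 reads in count-table Vehicle and 32 in count-table TCM, and passed upward with no filter (log2 change 2.29, adjusted p = 0.00751, edgeR).

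Platelet receptor and coagulation genes gave 10 falls, 5 rises and 7 genes that did not pass among 22 tested (median -0.37). That is 45.5% lower and 22.7% higher, against 30.0% and 28.8% of all tested genes. Of the 10 that fell, 4 reached the filter through count-table Vehicle alone, Tbxas1 among them. Itgb3, whose product pairs with that of Itga2b, fell 2.97-fold from 37.7 ± 4.98 to 12.6 ± 3.65 CPM, Rasgrp2 3.08-fold and the thromboxane synthase gene Tbxas1 7.63-fold. Tbxa2r, the thromboxane receptor gene, rose 15.3-fold from 8.86 ± 2.97 to 136 ± 45.9 CPM. The genes of the von Willebrand factor receptor complex and of GPVI were under the filter, with 22, 21, 43, 42 and 31 reads of Gp9, Gp1ba, Gp1bb, Gp5 and Gp6 in count-table Vehicle and 6, 4, 4, 7 and 6 in count-table TCM. With no filter, 6 of the 8 genes of this list under the filter passed downward and 0 upward. Gp9 and the lipoxygenase gene Alox12 did not pass (adjusted p = 0.129 and 0.490, edgeR). That fit called 3905 genes lower and 3790 higher among all 16864 tested.

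Platelet granule and cytoskeleton genes gave 10 falls, 5 rises and 7 genes that did not pass among 22 tested (median -0.41). Shares were 45.5% lower and 22.7% higher, beside 30.0% and 28.8% over all tested genes. Of the 10 that fell, 2 reached the filter through count-table Vehicle alone, F5 among them, and of the 5 that rose, Cxcl5 reached it through count-table TCM alone. Selp, the adhesion receptor P-selectin of platelet granules and endothelium, rose 15.1-fold from 8.69 ± 1.06 to 132 ± 11 CPM. Cxcl5, a neutrophil-attracting chemokine gene, rose from 2, 4 and 3 reads to 68, 78 and 84. F5, coagulation factor V, fell from 106, 187 and 114 reads to 4, 3 and 5, and the filamin gene Flna 2.76-fold. Ppbp, another chemokine gene of platelet granules, fell from 1.57 to 0.734 CPM, a log2 change of -1.10 (adjusted p = 0.0143, edgeR). It no longer passed without Vehicle replicate 3 (adjusted p = 0.0508) or TCM replicate 2 (adjusted p = 0.0593). With no filter, 2 of the 8 genes of this list under the filter passed downward and 0 upward in edgeR. Among all 16864 genes tested in that fit, 3905 passed downward and 3790 upward.

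**Figure D4:**
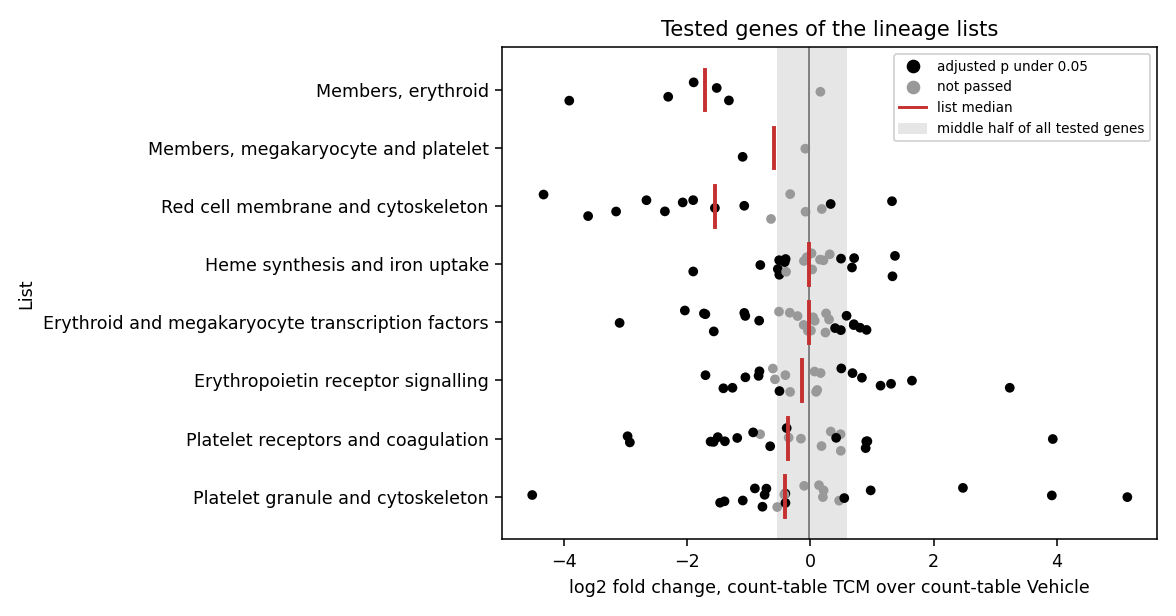
Log2 fold change, count-table TCM over count-table Vehicle, of each tested gene in the lists of the 2 lineages, black where the adjusted p was under 0.05. Red ticks are list medians, the grey line is the median of all 12423 tested genes and the grey band their interquartile range. The erythroid genes and the red cell membrane list have medians of -1.71 and -1.55, and the heme, transcription factor and receptor signalling lists sit near 0. Of the falls, 3 of 5 erythroid and 8 of 9 red cell membrane genes reached the filter through count-table Vehicle alone. Such genes had to differ to be tested, so these medians are a description.

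Markers of other cell types moved in the same libraries, and their part in the results above was not tested. Of 17 neutrophil markers 16 fell and 0 rose, with a summed level of 9064 to 13623 CPM in count-table Vehicle and 1570 to 2660 CPM in count-table TCM. Of 14 tested mast cell, basophil and eosinophil markers, cells that also use GATA1 and GATA2, 10 fell and 0 rose (158.5 to 198.7 against 46.5 to 58.3 CPM, with Tpsab1 at 0). Of 17 macrophage markers 11 fell and 3 rose (609 to 734 against 285 to 291 CPM). Lyz2 carried the fall of this sum, at 414 ± 29.2 CPM in count-table Vehicle and 32.7 ± 2.09 CPM in count-table TCM. The summed level of the other macrophage markers overlapped between the groups. That sum includes Hmox1, which rose from 60.3 ± 9.18 to 156 ± 2.97 CPM. The 11 falls were thus not limited to Lyz2, and Vcam1 went from 14.5 ± 0.636 to 2.25 ± 0.576 CPM. Marco, Hmox1 and Ms4a7 rose 3.01-fold, 2.58-fold and 1.78-fold, and Emr1, Cd68 and Spic did not pass. Of 13 B cell markers 8 fell and 0 rose (2154 to 2601 against 1307 to 1560 CPM). T cell markers gave 3 rises, 4 falls and 7 that did not pass among 14, and stem and progenitor markers 2 rises and 4 falls among 10. Shares lower were 94.1% for neutrophil, 71.4% for mast cell, basophil and eosinophil, 64.7% for macrophage and 61.5% for B cell markers. They were 28.6% for T cell and 40% for stem and progenitor markers, beside 30.0% of all tested genes. Shares higher were 17.6% for macrophage, 21.4% for T cell and 20% for stem and progenitor markers, beside 28.8% of all tested genes. The 6 erythroid genes together measured 41.8, 58.7 and 67.1 CPM in count-table Vehicle and 10.9, 15.1 and 18.8 CPM in count-table TCM, a ratio of 3.75. Beta-s gave most of this sum, and the other 5 genes summed to 12.8 ± 0.995 against 3.32 ± 0.256 CPM (SD, n = 3), a ratio of 3.86. Slc4a1 alone made up 6.47 CPM of the former and 0.42 CPM of the latter, so this ratio leans on it. Ltf and Mmp9 of neutrophils fell 153-fold and 13.6-fold, Hdc of mast cells and basophils 6.81-fold, Lyz2 and Vcam1 of macrophages 12.7-fold and 6.43-fold, and Fcrla and Cd79b of B cells 10.5-fold and 3.41-fold. Thy1 of T cells rose 2.75-fold and Zap70 fell 1.81-fold.

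**Figure D5:**
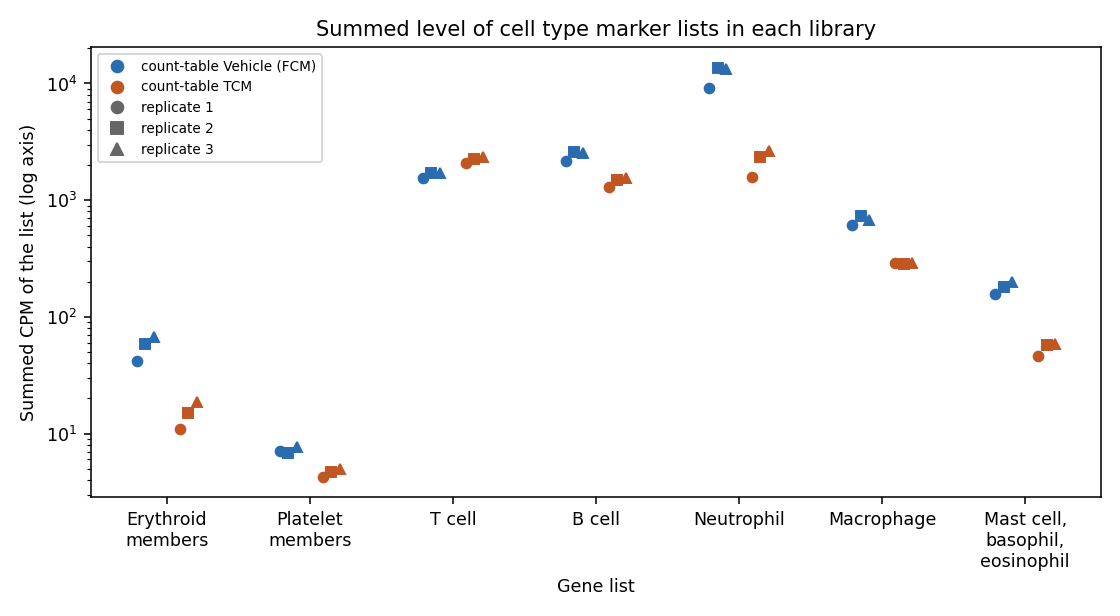
Summed CPM (log axis) of the 6 erythroid and 2 platelet genes and of the marker lists of other cell types in each library. Blue points are count-table Vehicle, orange points count-table TCM, and the marker shape gives the replicate. The neutrophil sum went from 9064 to 13623 CPM in blue to 1570 to 2660 CPM in orange, and the T cell sum was higher in orange, at 2067 to 2354 CPM, a difference carried by Thy1.

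The genes whose log2 CPM over the 6 libraries followed each of the 8 most closely were listed as a description. The 6 libraries fall into the 2 groups compared, and many genes had a Pearson r over 0.95: 727 for Slc4a1, 1726 for Alas2, 1183 for Itga2b and 439 for Beta-s. The closest were Tmem63a and Nagpa for Slc4a1, Gpr84 and Tmem106a for Alas2, Slc19a1 and Leng9 for Beta-s, Pip5k1c and Trim28 for Klf1, Nup107 and Enoph1 for Gata1 and Clic4 and Pnpla6 for Itga2b, with the lowest r at 0.997 for Nagpa. Prrc1 and Gm14005 were closest to Pf4, at 0.998 and 0.997. Epor had only 3 genes over 0.95, and 2610204G22Rik (0.966) and Cacna1s (0.964) were the closest.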

How the data were processed

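Read counts per gene over exons were deposited as 1 table of whole numbers, with STAR 2.7.2d, DESeq2 1.28.1 and mm10 named per the submitters' processing notes. How reads were assigned to genes (tool, annotation, strand) is not given in the sources used here. The normalized table holds a signal per gene that the authors' values show to be those counts divided by DESeq2 size factors: 100% of values came out as whole reads at a tolerance of 0.1. It was used to check column titles. Samples were grouped by the count table's titles, 3 libraries each.

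Counts were tested with edgeR 4.0.16 (R 4.3.3; filterByExpr, TMM, quasi-likelihood), adjusted over 12423 genes at a threshold of 0.05. On simulated counts with 12423 genes, 90 of 100 genes changed 2-fold were recovered. The simulation used a common spread for all genes, no outlying replicate and far fewer changed genes than were called here. Its changed genes came from all levels of expression, so this recovery does not give the power for genes with few reads. Alternatives were DESeq2 1.42.0, other scalings and filters, left-out libraries, the replicate block and the normalized table's header. Deviations of same-numbered libraries correlated at 0.60, 0.15 and 0.36, each over 0.1, the rule for taking the replicate numbers as possible pairs. The log2 changes and p-values reported in the Results come from the fit without a block, which ignores such pairing. The replicate block was run as an alternative only. Vehicle 2 with TCM 3 (0.42) and Vehicle 3 with TCM 2 (0.27) also correlated, so the numbers do not separate replicates 2 and 3.

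The 8 genes and the lists were chosen with earlier results of these data known. Within lists, the called genes with the smallest p were named, at most 4 per lineage list and 2 per other list, as were all globin rows with a read and the 2 genes closest to each of the 8. Other genes named were chosen after their values were seen. The exact interval of a ratio of reads covers counting error only, and the 95% intervals of log2 changes come from the edgeR fit.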

Additional observations from a re-analysis of the deposited data

How the results depend on the processing

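The 6 genes that fell passed with the same sign under 13 of 13 alternatives that keep the count table's header, and Epor and Pf4 passed under 0 of 13. Grouped by the normalized table's header, 6 of the 8 genes were higher and 0 lower, with log2 changes of 3.91 for Slc4a1, 2.31 for Alas2, 1.90 for Beta-s, 1.52 for Klf1, 1.32 for Gata1, -0.16 for Epor, 0.084 for Pf4 and 1.10 for Itga2b. Scaling by library totals alone moved the median of all genes by -0.21, gave 2364 genes higher and 3965 lower (37.4% of calls higher, against 49.0%) and turned Epor to -0.057. Leaving out 1 library gave 2878 to 4030 genes higher and 2818 to 4199 lower, and Pf4 ranged from -0.30 to 0.15. With the replicate number as a block, 4509 genes were higher and 4594 lower. The block values were -3.93 for Slc4a1, -2.30 for Alas2, -1.91 for Beta-s, -1.55 for Klf1, -1.33 for Gata1, 0.17 for Epor, -0.076 for Pf4 and -1.11 for Itga2b, and it changed no call of the 8 genes. Of 156 counts over the 6 lists and 13 settings, 140 stayed within 1.5 times the reported count. The exceptions were rises under library totals alone (red cell membrane 1, heme 2, transcription factors 3, platelet receptors 3), with no filter (red cell membrane 1 rise and 14 falls, platelet receptors 16 falls), falls of receptor signalling genes (11 with the block or without both replicate 1 libraries) and, with 1 library left out, rises of the red cell membrane (1 in 5 cases), heme (3 without Vehicle replicate 3) and platelet granule lists (3 without TCM replicate 2). Of the 43 list genes named with a call, 0 reversed. Gypc, Fech and Ppbp lost the call in at least 1 setting, Gypc (adjusted p = 0.593) and Fech (adjusted p = 0.0605) under library totals alone and Gypc also with no filter (adjusted p = 0.0557). The cause of these shifts was not tested. Low counts limit Slc4a1, Alas2 and Klf1 in count-table TCM, where 3 reads equal 0.16 to 0.196 CPM.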
